A study of Mus musculus with 4 samples.

Results

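Integrins are the receptors by which cells hold their matrix, and laminins and adhesive glycoproteins are among the molecules they hold. RNA levels of 47 such genes were examined among the 17575 genes listed in 4 RNA-seq libraries of mouse rib chondrocytes, the cells that make cartilage matrix. The genes were picked by symbol from families named when earlier results of these data were known. They comprise 18 integrin alpha subunit genes (symbols starting with Itga), 9 integrin beta subunit genes (Itgb followed by a number), 11 laminin chain genes (Lama, Lamb and Lamc) and 9 glycoprotein genes (Fn1, Tnc, Tnxb, Vtn, Postn, Nid1, Nid2, Hspg2 and Sparc). 3 genes with similar symbols, starting with Itgb1bp or Itgb3bp, were left out of the 47. 44 of the 47 had enough counts to be tested, and Vtn, Lamc3 and Itgad did not.

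The cells came from the rib cartilage of C57/Bl6 mice aged 10 days, were released with collagenase II in an overnight digestion, filtered and plated, and their RNA was taken with trizol. The wild type group has 2 libraries. The other group, called knockout here, has 2 libraries from mice that carry the transgene Col2Cre(Tg), a Cre recombinase under Col2 control, with floxed alleles, Kdm6a(fl/fl) and Kdm6b(fl/fl), of the histone H3 lysine demethylase genes Kdm6a and Kdm6b. A Cre under Col2 control is made for use in cartilage, and in which cells of the digest it acted was not measured. The series text mentions triplicates, and the samples described here are 4 libraries, 2 in each group. The labels do not say that the libraries of a group are from separate animals, so the p-values measure the spread between these libraries, which may be technical. An exact permutation test of 2 libraries against 2 cannot give a two-sided p under 0.333.

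Depth was 31178248 to 32332044 counts per library, and 46 or 47 of the 47 genes were listed in each. Kdm6a measured 52.6 and 56.9 CPM (TMM-scaled counts, set to one common depth) in wild type and 28.6 and 31.4 CPM in knockout, and Kdm6b 131 and 118 CPM against 51.4 and 46.2 CPM. Each targeted transcript thus follows the labels, and counts over whole genes do not show how much of the remainder is intact. The 11 chondrocyte markers were all listed, and their summed level was 45918 and 44511 CPM in wild type and 62997 and 60461 CPM in knockout. Col2a1, the main collagen gene of cartilage, measured 26008 and 24370 CPM against 37111 and 36603 CPM, so the labelled cell type carries its defining transcript in every library. In such bulk samples fewer cells of a type and less RNA per cell cannot be told apart.

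An integrin is a pair of an alpha and a beta subunit that spans the membrane, binds matrix outside and talin and kindlin inside, and links both to actin. The beta 1 subunit pairs with many alpha subunits, and the alpha partner sets the ligand: collagen for the products of Itga1, Itga2, Itga10 and Itga11, the RGD motif of fibronectin and related proteins for those of Itga5, Itga8 and Itgav, laminin for those of Itga3, Itga6 and Itga7. Chondrocytes sit in a collagen II network, and the product of Itga10 is known as a collagen II receptor of cartilage. Laminins are trimers of an alpha, a beta and a gamma chain, which nidogens and perlecan (Hspg2) tie into basement membranes and, in cartilage, into the thin matrix shell around each cell.

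The promoter DNA of 31 of the 47 genes, in 36 windows, was found in RefSeq for the mouse build GRCm38.p6. The 250 bases that end just before the annotated transcription start are printed 5′ to 3′ on the gene's strand for 3 of the 4 genes that passed the test below and for Itgb1, the shared subunit that did not, with each CpG in capitals. Itgb2, the other gene that passed, is named only. The windows are chr3:96645334-96645583 on the plus strand for Itga10, chr13:115101965-115102214 on the minus strand for Itga1, chr7:128062390-128062639 on the plus strand for Itgam and chr8:128685404-128685653 on the plus strand for Itgb1.
Itga10: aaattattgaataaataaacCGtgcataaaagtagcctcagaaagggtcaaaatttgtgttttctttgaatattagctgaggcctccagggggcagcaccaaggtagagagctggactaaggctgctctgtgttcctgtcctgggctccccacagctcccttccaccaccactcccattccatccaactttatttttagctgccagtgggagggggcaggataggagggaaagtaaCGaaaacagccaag
Itga1: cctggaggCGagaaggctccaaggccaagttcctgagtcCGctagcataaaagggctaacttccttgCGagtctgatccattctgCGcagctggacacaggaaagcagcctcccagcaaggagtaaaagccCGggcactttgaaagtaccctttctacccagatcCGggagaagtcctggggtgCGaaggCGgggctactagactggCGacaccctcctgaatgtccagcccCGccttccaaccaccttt
Itgam: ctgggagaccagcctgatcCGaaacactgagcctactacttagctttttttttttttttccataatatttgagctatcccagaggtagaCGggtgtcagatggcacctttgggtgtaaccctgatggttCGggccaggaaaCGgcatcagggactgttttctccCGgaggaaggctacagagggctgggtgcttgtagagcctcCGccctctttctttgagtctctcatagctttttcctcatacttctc
Itgb1: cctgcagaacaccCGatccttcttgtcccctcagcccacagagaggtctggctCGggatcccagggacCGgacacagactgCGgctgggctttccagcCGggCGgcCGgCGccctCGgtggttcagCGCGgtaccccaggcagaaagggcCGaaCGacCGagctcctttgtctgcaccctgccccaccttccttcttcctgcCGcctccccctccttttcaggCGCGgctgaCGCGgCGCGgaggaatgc

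The 3 windows of genes that passed hold 2 CpGs (Itga10), 10 CpGs (Itga1) and 6 CpGs (Itgam), and the Itgb1 window holds 21. By observed over expected CpG these are ratios of 0.139, 0.485 and 0.39 against 0.741. At a GC share of at least 50% and a ratio of at least 0.6, Itgb1 counts as CpG-rich and the other 3 do not. Of all 36 windows of these genes 10 (27.8%) are CpG-rich, against 31% of the 32851 windows in the RefSeq set. The short motif ACAAT, the core bound by SOX factors, was searched on both strands and stands in none of the 4 printed windows, in 8 of the 36 and in 27.7% of all windows. TGTGGT, a RUNX core, stands in none of the 4, in 2 of the 36 and in 14% of all. GAGGAA, a longer motif that holds the ETS core GGAA, stands in the windows of Itgam and Itgb1, in 17 of the 36 and in 23.3% of all. The core GGAA alone also stands in the printed windows of Itga10 and Itga1, and was not counted over all windows. These matches describe letters in a window and are not evidence of binding.

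Levels were compared between genes as FPKM, which the authors deposited and which divides counts by gene length and depth. 2 genes lay at 1000 FPKM or more on average, 4 between 100 and 1000, 12 between 10 and 100, 9 between 1 and 10, and 20 under 1. Fn1, which encodes fibronectin, stood at 6022 and 7628 FPKM in wild type and 5510 and 6080 FPKM in knockout, and was the first gene of all by FPKM in both wild type libraries and the second in both knockout libraries. Sparc, a collagen-binding matricellular protein, stood at 3515 and 3493 FPKM against 3745 and 3246 FPKM, ranking 5 or 6 among all genes. Next came Itga5, Itgb1, Hspg2 and Nid2 at 130 to 195 FPKM in every library, which do not keep one order across libraries. The 47 genes together held 6.39% and 7.67% of wild type counts and 5.98% and 6.36% of knockout counts, of which Fn1 alone held 4.81% and 6.09%, and 4.39% and 4.86%.

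**Figure D1:**
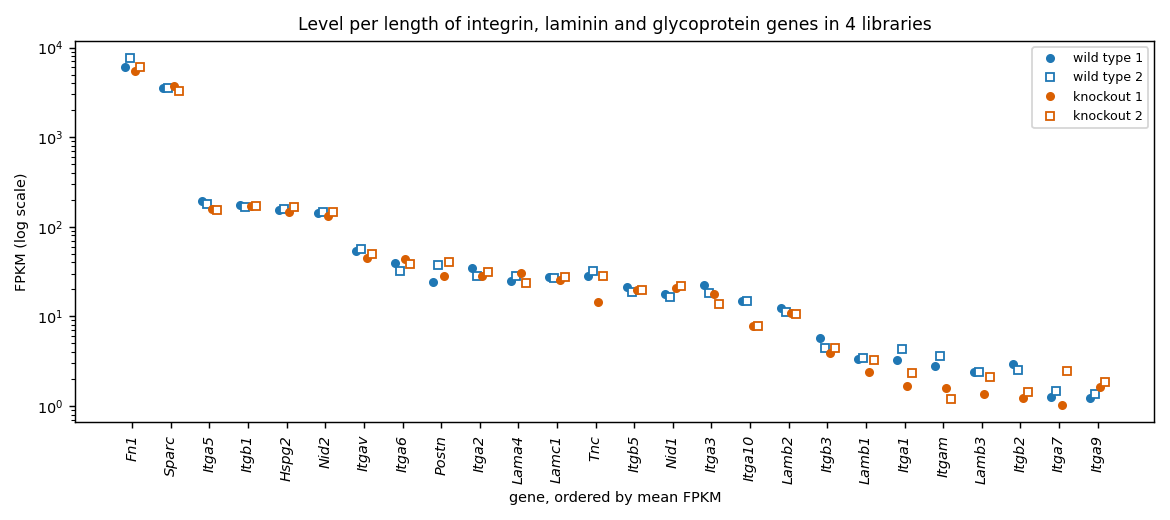
FPKM on a log axis of genes averaging 1 FPKM or more (27, of which 1 is not drawn), ordered by their mean, with a point for each library (circles replicate 1, squares replicate 2, blue wild type, orange knockout). Fn1 and Sparc stand above 1000 FPKM, 4 genes follow above 100, and the blue and orange points separate visibly for Itga10, Itga1, Itgam and Itgb2.

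Knockout was then compared with wild type. 4 of the 44 tested genes (9.09%) differed at an adjusted p under 0.05 in edgeR's quasi-likelihood test, near the 9.25% of all 13773 tested genes. All 4, namely Itga10, Itga1, Itgam and Itgb2, fell in knockout, where 5.63% of all tested genes fell, and none rose, where 3.62% of all rose. At an unadjusted p under 0.05 from edgeR, 9 genes were lower and 2, Nid1 and Itga9, were higher, together 25% of the 44 against 29.2% of all genes (15.3% lower, 13.8% higher). In DESeq2, 5 fell (the same 4 and Itga5) and 1, Nid1, rose, where 12.6% of all genes with an adjusted p passed. In the authors' deposited table of a DESeq2 comparison, 5 of the 47 genes had an adjusted p under 0.05, all lower in knockout (Itga10, Itgam, Itgb2, Itga1 and Itga5), where 8.52% of all its genes did. The authors' own up or down label there marks 2 of the genes, Itgam and Itgb2, both as down.

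Most log2 fold changes were negative. 38 of the 44 (86.4%) had a log2 fold change below 0, against 49.4% of all tested genes, and their median was -0.27 against 0.00. Knockout and wild type libraries did not overlap in CPM for 28 of the 44 (63.6%, against 61.7% of all), and 26 of these were lower in knockout (59.1% of the 44, against 30.7% of all). The genes share ligands, partners and cell types and are not independent, so these shares are descriptions.

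**Figure D2:**
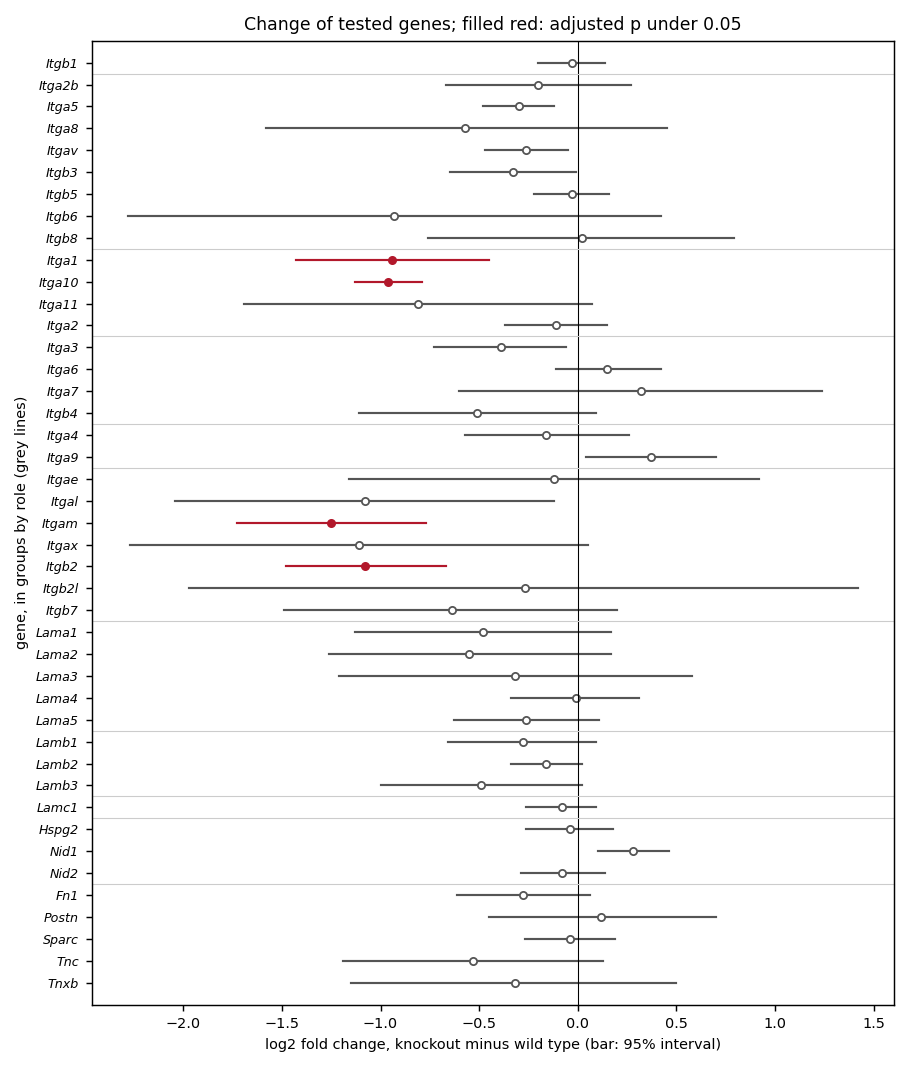
Log2 fold change, knockout minus wild type, of the 44 tested genes (1 not drawn) with its 95% interval from edgeR, in groups by role; filled red points passed an adjusted p of 0.05. Most points lie left of 0, and the 4 that passed are Itga10, Itga1, Itgam and Itgb2.

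The collagen-binding alpha subunits held 2 of the 4 calls. Itga10 (gene 213119) measured 74.9 and 78.1 CPM in the wild type libraries and 39.1 and 39.4 CPM in the knockout libraries. The replicates of each group lay close together and the groups were far apart. It fell 1.95-fold, from 76.5 ± 2.3 to 39.3 ± 0.2 CPM (mean ± SD over 2 libraries). On the log2 scale the change was -0.96 (SE 0.071, 95% interval -1.13 to -0.79, edgeR adjusted p = 0.00188). In the same libraries 4 of the 11 chondrocyte markers rose (Col2a1, Col9a1, Col11a1 and Matn3) and 1, Comp, fell. Of all tested genes 3.62% rose and 5.63% fell.

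Itga1 (gene 109700), whose product binds collagens of basement membranes and of fibrils, measured 19.6 and 26.5 CPM in wild type and 10 and 14 CPM in knockout. Its replicates varied more than those of Itga10, and the groups did not overlap. It fell 1.92-fold, from 23.1 ± 4.9 to 12 ± 2.8 CPM (mean ± SD over 2 libraries; log2 change -0.94 with SE 0.20, 95% interval -1.43 to -0.45, edgeR adjusted p = 0.0401). Itga1 is also used by fibroblasts and vessels. The 10 fibroblast and perichondrium markers, all listed, summed to 1237 and 1645 CPM in wild type and 763 and 1012 CPM in knockout. Of the 10, 3 fell (Col1a2, Dcn and Prrx1) and 0 rose in edgeR, where 5.63% of all tested genes fell and 3.62% rose. At an unadjusted p under 0.05 from edgeR, 4 were lower and 1, Twist1, was higher. Log2 fold changes were above 0 for Twist1 (0.36), Lum (0.35) and Col3a1 (0.06). Dcn alone measured 446 and 732 CPM in wild type and 252 and 313 CPM in knockout. The 9 endothelial markers, all listed, summed to 158 and 149 CPM against 116 and 102 CPM, with 4 of 9 falling (Eng, Cdh5, Tek and Pecam1). Smooth muscle and pericyte markers, all 8 listed and tested, had a median log2 fold change of 0.05. Of these 3 were below 0 and 5 above, and 0 passed in edgeR. The part of these cell types in the result was not tested.

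Itga2, whose product prefers fibrillar collagen, measured 147 and 122 CPM against 118 and 131 CPM, with overlapping groups (log2 fold change -0.11, 95% interval -0.37 to 0.15, edgeR adjusted p = 0.541). Itga11, a collagen receptor subunit of mesenchymal cells, was low at 2.85 and 6.19 CPM against 2.72 and 2.42 CPM. Wild type replicate 2 stood alone there, and the log2 fold change of -0.81 (edgeR adjusted p = 0.197) was -0.14 without that library.

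The make-up of this subunit group is given as shares of FPKM, without a test. Summed over the 4 genes, collagen-binding alpha subunits stood at 53.0 and 48.4 FPKM in wild type and 38.0 and 41.8 FPKM in knockout. Itga2 made up 65.0% and 57.7% of that sum in wild type and 73.6% and 74.5% in knockout, and Itga10 27.8% and 31.0% against 20.5% and 18.8%. Itga2 stood at 2.33 and 1.86 times Itga10 by FPKM in wild type and at 3.58 and 3.97 times in knockout, without overlap. Relative to the shared Itgb1, Itga10 had a ratio of FPKM of 0.0851 and 0.0900 in wild type and of 0.0452 and 0.0465 in knockout.

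**Figure D3:**
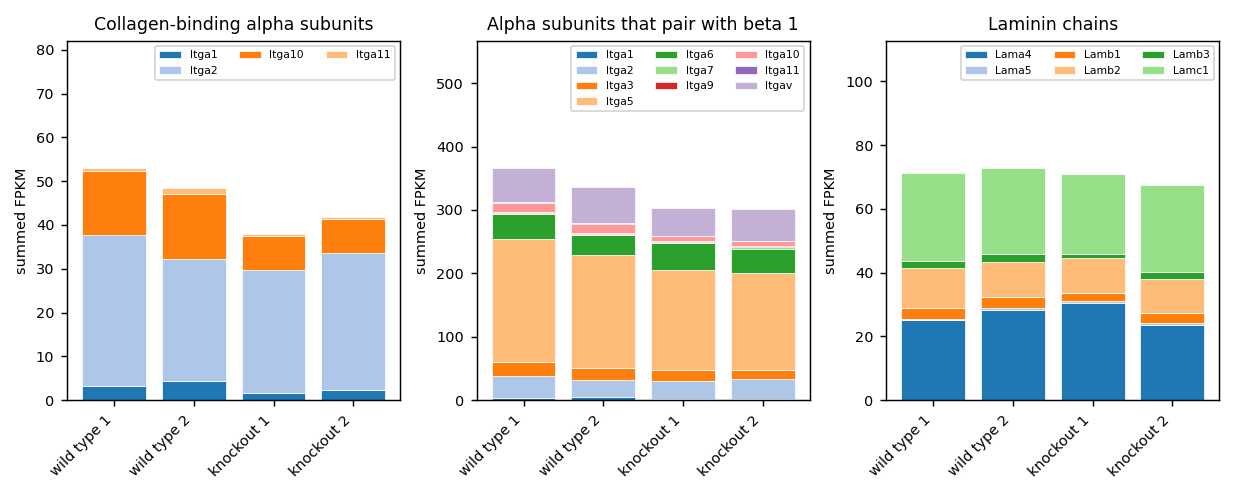
Summed FPKM in each library of collagen-binding alpha subunits, of all alpha subunits that pair with beta 1, and of laminin chains, split by gene; genes averaging under 0.5 FPKM and 1 laminin chain are not drawn. The Itga10 segment is smaller in both knockout libraries, Itga5 is the largest beta 1 partner in all 4, and Lama4, Lamb2 and Lamc1 lead the laminin chains.

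Itgb1, the common partner, showed little difference. It measured 731 and 721 CPM in wild type and 719 and 705 CPM in knockout, a log2 fold change of -0.03 whose 95% interval ran from -0.20 to 0.14 (edgeR adjusted p = 0.825), and its sign turned to 0.01 on the FPKM scale. It made up 84.7% to 86.9% of all beta subunit FPKM in the 4 libraries. Itgb5, which pairs with Itgav, came next with 9.53% to 10.3% and had a log2 fold change of -0.03 (95% interval -0.22 to 0.16, edgeR adjusted p = 0.822), also 0.01 on the FPKM scale.

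None of the 8 genes of fibronectin and RGD-binding subunits passed in edgeR, with 3 (Itga5, Itgav and Itgb3) at an unadjusted p under 0.05 and 1 (Itga5) called by DESeq2. Itga5, the alpha subunit of the classic fibronectin receptor, measured 862 and 808 CPM in wild type and 686 and 672 CPM in knockout. The groups did not overlap and the replicates of each lay close. Its log2 fold change was -0.30 (SE 0.075, 95% interval -0.48 to -0.12), with an edgeR adjusted p of 0.058 and a DESeq2 adjusted p of 0.0121, so its call depends on the tool. By FPKM Itga5 made up 50.8% to 53.1% of the alpha subunits that can pair with beta 1 in every library, and its ratio to Itgb1 was 1.12 and 1.07 in wild type against 0.91 and 0.908 in knockout.

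Itgav, the alpha subunit of the vitronectin receptors, measured 385 and 412 CPM against 312 and 354 CPM, again without overlap (log2 fold change -0.26, 95% interval -0.47 to -0.05, edgeR adjusted p = 0.116). Itgb3, its partner in the vitronectin receptor of osteoclasts and platelets, had a log2 fold change of -0.33 (edgeR adjusted p = 0.158). Itga2b, the platelet subunit, averaged 0.87 FPKM, and Itga8, Itgb6 and Itgb8 were lower still. None of these 4 passed, with log2 fold changes between -0.93 (Itgb6) and 0.02 (Itgb8). Platelet and megakaryocyte markers summed to 8.98 and 9.78 CPM in wild type and 7.05 and 11.4 CPM in knockout, with overlapping groups.

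Of the 4 laminin-binding subunits none passed in edgeR, with 1 (Itga3) at an unadjusted p under 0.05 and 0 called by DESeq2. Itga6, the leading laminin receptor subunit here, measured 236 and 198 CPM in wild type and 258 and 226 CPM in knockout, with overlapping groups (log2 fold change 0.15, 95% interval -0.11 to 0.42, edgeR adjusted p = 0.395). Itga3 measured 109 and 91.5 CPM against 86.0 and 66.9 CPM (log2 fold change -0.39, edgeR adjusted p = 0.127), and passed at -0.58 without knockout replicate 1 (adjusted p = 0.0208 in edgeR, 0.0184 in DESeq2). It was -0.21 (edgeR adjusted p = 0.372) without knockout replicate 2 and -0.26 (0.416) without wild type replicate 1. Itga7, a muscle laminin receptor subunit, differed widely between the knockout libraries, at 4.12 and 9.94 CPM against 5.12 and 6.12 CPM in wild type. Its log2 fold change of 0.32 (edgeR adjusted p = 0.609) was 0.82 without knockout replicate 1 and -0.44 without knockout replicate 2. Skeletal muscle markers summed to 7.72 and 27.7 CPM in those knockout libraries and to 10.6 and 10.4 CPM in wild type, and their part was not tested. Itgb4, the hemidesmosome subunit, averaged under 1 FPKM.

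The alpha 4 and alpha 9 subunits, which bind an alternatively spliced fibronectin segment and tenascin among other ligands, were low. Itga9 had the largest positive log2 fold change among the 44 genes, with 8.79 and 9.94 CPM in wild type and 11.3 and 12.9 CPM in knockout (log2 fold change 0.37, 95% interval 0.04 to 0.70, edgeR adjusted p = 0.134). Its groups did not overlap. Itga4 measured 4.71 and 5.73 CPM against 4.49 and 4.88 CPM, with overlap.

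The remaining 2 calls were in the subunits of white blood cells. Itgam (gene 16409), the alpha subunit of the myeloid complement receptor Mac-1, measured 13.2 and 17.6 CPM in wild type and 7.38 and 5.58 CPM in knockout. Both knockout values lay well under both wild type values. It fell 2.38-fold, from 15.4 ± 3.1 to 6.48 ± 1.3 CPM (mean ± SD over 2 libraries; log2 change -1.25 with SE 0.20, 95% interval -1.73 to -0.77, edgeR adjusted p = 0.0171). Itgb2 (gene 16414), the beta subunit shared by leukocyte integrins and the partner of Itgam, measured 8.48 and 7.34 CPM against 3.45 and 4.05 CPM. Its groups did not overlap, and it fell 2.11-fold, from 7.91 ± 0.80 to 3.75 ± 0.43 CPM (mean ± SD over 2 libraries; log2 change -1.08 with SE 0.17, 95% interval -1.48 to -0.67, edgeR adjusted p = 0.0163).

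Of the 7 tested leukocyte subunits all had log2 fold changes below 0, with a median of -1.08, and 5 (Itgae, Itgal, Itgax, Itgb2l and Itgb7) did not pass. Itgal, the alpha subunit of LFA-1, measured 1.08 and 1.98 CPM against 0.793 and 0.644 CPM (edgeR adjusted p = 0.135). The 8 genes summed to 25.6 and 31.7 CPM in wild type and 14.3 and 12.7 CPM in knockout, and Itgam and Itgb2 were the 2 above 1 FPKM on average.

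The summed level of macrophage markers was also lower in both knockout libraries. The 13 markers, all listed, summed to 181 and 184 CPM in wild type and to 97.3 and 112 CPM in knockout. Of the 9 tested, 2 (Cd14 and Lyz2) fell and 0 rose in edgeR, where 5.63% of all tested genes fell and 3.62% rose. At an unadjusted p under 0.05 from edgeR 5 were lower, and 3 fell in DESeq2. The median log2 fold change of the 9 was -0.76. Among the defining genes C1qa, C1qb, C1qc and Aif1 were at or near 0, at no more than 0.184 CPM in any library, and the 3 C1q genes were higher in both knockout libraries at that level. Cd14 alone, at 125 and 132 CPM in wild type and 61.4 and 76.3 CPM in knockout, made up most of the sum. Adgre1, the gene of the macrophage antigen F4/80, measured 1.2 and 1.19 CPM against 0.641 and 2.12 CPM, a log2 fold change of 0.21 (edgeR adjusted p = 0.828). Ptprc, the pan-leukocyte surface gene CD45, measured 4.08 and 4.54 CPM against 2.2 and 0.951 CPM (edgeR adjusted p = 0.0588). By FPKM Itgam stood at 3.64 and 4.39 times Ptprc in wild type and at 3.79 and 6.67 times in knockout, and Itgb2 at 3.84 and 3 times against 2.90 and 7.94 times, so both ratios overlapped between the groups. Neutrophil and lymphocyte markers summed to 42.1 and 75.2 CPM in wild type and 43.5 and 17.8 CPM in knockout, with Ly6g, Cd3e and Ms4a1 in no library. The part of white blood cells in the fall of Itgam and Itgb2 was not tested.

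**Figure D4:**
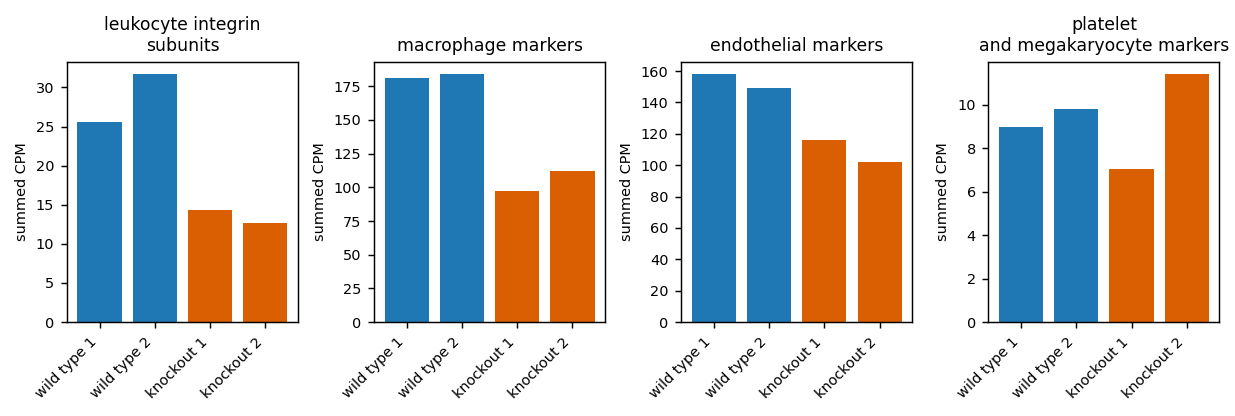
Summed CPM in each library of the 8 leukocyte integrin subunits and of markers of macrophages, endothelium and platelets, as bars from 0. The first 3 sums are lower in both knockout libraries than in both wild type libraries, and the platelet sums overlap.

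All 4 edgeR calls ended when a wild type library was left out. With wild type replicate 1 removed, their edgeR adjusted p-values ran from 0.0936 to 0.13, and with wild type replicate 2 removed from 0.158 to 0.276, where edgeR called 0 of all genes in each case. At an unadjusted p under 0.05 there were then 1681 genes higher and 1761 lower, and 1209 and 1378. Of the genes described here 12 and 7 reached that unadjusted p, and DESeq2 called 4 (Itga10, Itga1, Itgam and Fn1) and 1 (Itga10). Itga10 passed in DESeq2 without any 1 of the 4 libraries, with adjusted p-values of 9.34e-07 to 9.68e-05. Itga1, Itgam and Itgb2 each lost the DESeq2 call without wild type replicate 2 (adjusted p = 0.307, 0.11 and 0.146). Itgb2 lost it also without wild type replicate 1 (0.284) and knockout replicate 1 (0.134), and Itga1 without knockout replicate 1 (0.0914).

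**Figure D5:**
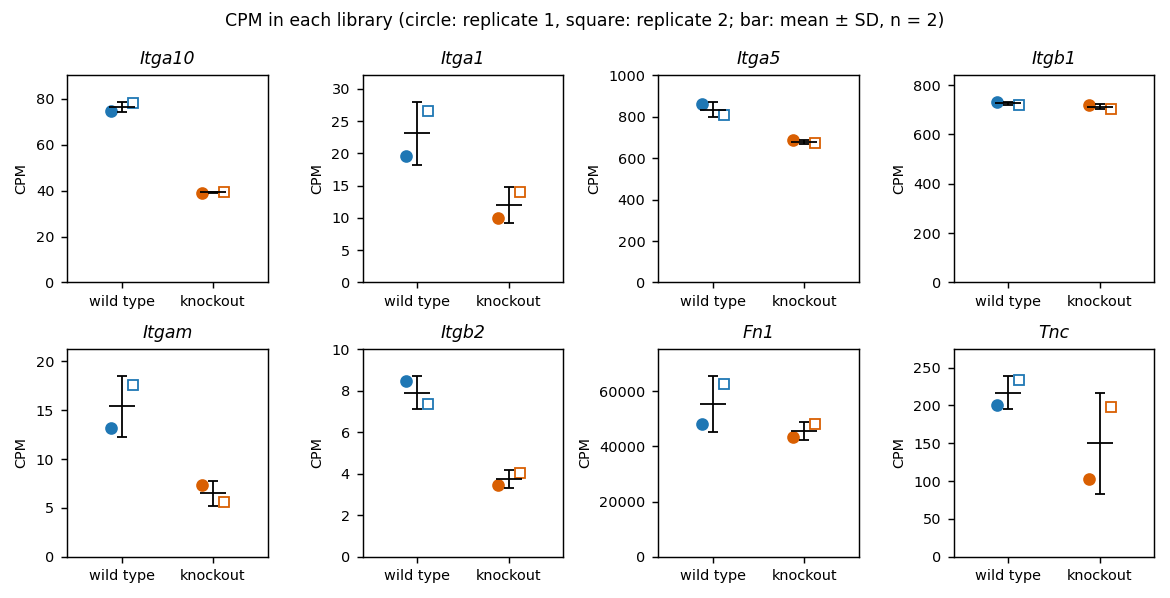
CPM of 8 genes in each library, with the mean and SD of each group (n = 2) and axes from 0. All 8 lie lower in both knockout libraries than in both wild type libraries, as do 30.7% of all tested genes, and Fn1 and Itgb1 do so only just. Those that passed in edgeR are Itga10, Itga1, Itgam and Itgb2. The Itgb1 values lie close together, and the 2 knockout values of Tnc lie far apart.

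None of the 10 tested laminin chain genes passed in edgeR, with 0 at an unadjusted p under 0.05 and 0 in DESeq2, while all 10 had log2 fold changes below 0, from -0.55 (Lama2) to -0.01 (Lama4). The sign of Lama4 turned positive on the FPKM scale (0.02) and without wild type replicate 2 or knockout replicate 2. Lama4, Lamb2 and Lamc1 led their chain classes in every library. Lama4, the alpha chain of vessels and mesenchyme, measured 152 and 177 CPM in wild type and 184 and 143 CPM in knockout, with the knockout values on both sides of the wild type values. It made up 95.5% to 97.1% of laminin alpha chain FPKM. Lamc1, the gamma chain of most laminins, measured 211 and 212 CPM against 192 and 208 CPM (log2 fold change -0.08, 95% interval -0.26 to 0.09, edgeR adjusted p = 0.484) and made up 90.1% to 91.7% of gamma chain FPKM.

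Among the beta chains Lamb2 made up 65.9% to 74.4% of FPKM and had a log2 fold change of -0.16 (95% interval -0.34 to 0.02, edgeR adjusted p = 0.214). Lamb1 measured 19.4 and 20.4 CPM in wild type and 13.9 and 18.8 CPM in knockout (log2 fold change -0.28, edgeR adjusted p = 0.275), a difference set mostly by knockout replicate 1. Lamb3, a chain of epithelial laminin, measured 9.74 and 10.0 CPM against 5.52 and 8.56 CPM. It did not pass with all libraries (edgeR adjusted p = 0.187) and had a log2 fold change of -0.83 (adjusted p = 0.0229 in edgeR, 0.125 in DESeq2) without knockout replicate 2, against -0.20 (edgeR adjusted p = 0.564) without knockout replicate 1. Lama3 stayed under 0.1 FPKM, and Lama1, Lama2 and Lama5 each averaged under 1 FPKM.

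The genes that tie laminin into basement membrane did not pass in edgeR, with 1 (Nid1) at an unadjusted p under 0.05. Hspg2, the gene of perlecan, measured 2200 and 2340 CPM in wild type and 2064 and 2355 CPM in knockout, and Nid2 696 and 737 CPM against 637 and 722 CPM. Both overlapped between the groups, with 95% intervals of the log2 fold change of -0.26 to 0.18 and -0.29 to 0.14. Nid1, the second nidogen, measured 108 and 103 CPM against 124 and 132 CPM and was thus higher in both knockout libraries. Its log2 fold change was 0.28 (SE 0.076, 95% interval 0.10 to 0.46), with an edgeR adjusted p of 0.068 and a DESeq2 adjusted p of 0.0427, so this call too depends on the tool.

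Of the 5 tested adhesive and matricellular glycoproteins none passed in edgeR, with 0 at an unadjusted p under 0.05 and 0 in DESeq2. Fn1 measured 48137 and 62525 CPM in wild type and 43357 and 48033 CPM in knockout. The higher knockout library lay just under the lower wild type library in CPM, and by FPKM, given above, the groups overlapped. The log2 fold change was -0.28 (SE 0.14, 95% interval -0.61 to 0.06, edgeR adjusted p = 0.239). This value rests on single libraries. It was -0.07 (adjusted p = 0.785 in edgeR, 0.992 in DESeq2) without wild type replicate 2, -0.20 without knockout replicate 1, -0.34 without knockout replicate 2, and -0.45 without wild type replicate 1 (adjusted p = 0.148 in edgeR, 0.0354 in DESeq2). Relative to Itga5, its receptor subunit, Fn1 stood at 30.9 and 42.9 times by FPKM in wild type and 35.1 and 39.6 times in knockout, with overlap. Sparc measured 9290 and 9473 CPM against 9768 and 8486 CPM (log2 fold change -0.04, 95% interval -0.27 to 0.19, edgeR adjusted p = 0.814).

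Tnc, the gene of tenascin C, which modulates adhesion to fibronectin, measured 201 and 233 CPM in wild type and 103 and 198 CPM in knockout. Knockout replicate 1 was low and knockout replicate 2 lay just under wild type. The log2 fold change was -0.53 (SE 0.27, edgeR adjusted p = 0.249) with all libraries, -0.13 (adjusted p = 0.574) without knockout replicate 1 and -1.07 (adjusted p = 0.000591) without knockout replicate 2. Postn, a matricellular protein of periosteum and other fibrous tissue, differed between replicates in both groups, at 78.5 and 123 CPM in wild type and 90.2 and 130 CPM in knockout (log2 fold change 0.12, edgeR adjusted p = 0.766). Tnxb measured 7.24 and 5.46 CPM against 3.26 and 6.90 CPM. Its groups overlapped. The log2 fold change of -0.32 (edgeR adjusted p = 0.567) was -0.95 without knockout replicate 2 (adjusted p = 0.0444 in edgeR, 0.197 in DESeq2), -0.10 (edgeR 0.912) without wild type replicate 1 and 0.12 (edgeR 0.805) without knockout replicate 1. Vtn, the gene of vitronectin, a plasma protein made mostly in liver, had 1 to 4 counts per library.

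By median these genes varied more between replicates than all tested genes. The median absolute log2 difference between replicates was 0.21 in wild type and 0.22 in knockout for the tested genes described here, against 0.14 and 0.12 for all tested genes. Of the 27 genes averaging 1 FPKM or more, 4 (Itga7, Lamb3, Postn and Tnc) differed by over 0.5 log2 between the knockout replicates and 1 (Postn) between the wild type replicates.

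Other genes of the same machinery were read from 4 lists. Of 34 genes of the intracellular adhesion complex 3 rose and 2 fell in edgeR, with a median log2 fold change of -0.04. Among all tested genes 3.62% rose and 5.63% fell. Kank1 and Kank2, whose products bind talin at the rim of adhesions, and Rsu1, a partner of the integrin-linked kinase complex, rose with log2 fold changes of 0.62, 0.49 and 0.44. Tns1 (tensin 1) and Vcl (vinculin), which link integrins to actin, fell with -0.88 and -0.37. Kank1 measured 222 and 267 CPM in wild type and 378 and 371 CPM in knockout (edgeR adjusted p = 0.0187), and Tns1 92.7 and 112 CPM against 49.7 and 61.5 CPM (edgeR adjusted p = 0.0143). The groups did not overlap in either gene.

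Of 15 other tested basement membrane genes 2 fell and 0 rose in edgeR, with a median log2 fold change of -0.40. Among all tested genes 5.63% fell and 3.62% rose. In this list 1 gene was higher at an unadjusted p under 0.05 in edgeR and 1 rose in DESeq2. Col15a1, a collagen of the basement membrane zone, measured 140 and 183 CPM against 80.2 and 90.6 CPM (log2 fold change -0.92, edgeR adjusted p = 0.0141). Ntn4, a netrin that binds laminin, measured 15.6 and 28.3 CPM against 8.97 and 10.1 CPM (log2 fold change -1.21, edgeR adjusted p = 0.0427). Of 12 other tested matrix receptors 1 fell in edgeR, the hyaluronan receptor Cd44, from 832 and 828 CPM to 445 and 551 CPM (log2 fold change -0.74, edgeR adjusted p = 0.0143), and 0 rose, with 1 higher at an unadjusted p under 0.05 and 1 rising in DESeq2.

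Of 21 other tested adhesive matrix ligands 2 rose and 4 fell in edgeR, with a median log2 fold change of -0.23. Over all tested genes 3.62% rose and 5.63% fell. DESeq2 called 3 of these ligands higher and 6 lower. The fibrillin genes Fbn1 and Fbn2 rose with log2 fold changes of 0.56 and 0.78. The thrombospondin family genes Comp and Thbs3 fell with -1.84 and -1.60. Thbs1 of the same family was higher in both knockout libraries, at 2039 and 2626 CPM in wild type and 3201 and 4413 CPM in knockout. Its log2 fold change was 0.71 (edgeR adjusted p = 0.06, DESeq2 adjusted p = 0.000461). Thbs2 and Thbs4 had log2 fold changes of 0.18 and -0.02. Sparcl1, a relative of Sparc, fell with -1.16, and the osteopontin gene Spp1 with -0.65. The 7 osteoblast markers, all listed, summed to 41.7 and 40.3 CPM in wild type and 23.3 and 27.6 CPM in knockout. Runx2 alone, at 32.8 and 31.4 CPM in wild type and 19.9 and 23.1 CPM in knockout, made up most of the sum. The other osteoblast markers were low, at no more than 2.31 CPM in any library. All 7 had log2 fold changes below 0, with a median of -1.55, and 2 (Bglap and Runx2) fell. Their part in the fall of Spp1 was not tested. Sparcl1 measured 91.6 and 102 CPM in wild type and 46.0 and 40.5 CPM in knockout (edgeR adjusted p = 0.00251), beside the overlapping values of Sparc itself.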

How the data were processed

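The members and all lists of genes were chosen with earlier results of these data known. The submitters' processing notes name Bowtie2 2.2.5 and mm9. For the count estimator, the annotation release and the strand setting, the sources used here give nothing. The authors deposited an expected count and an FPKM value per gene and library, per the file headers, and a DESeq2 table with group mean signal, log2 fold change, p-value and adjusted p-value per gene. Of the expected counts 74.2% to 74.6% were whole within 0.005. Genes absent from a library's list were set to 0.

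Counts were rounded, scaled by TMM, filtered by filterByExpr and tested with edgeR 4.0.16 (R 4.3.3) over 13773 genes in all 4 libraries, with p-values adjusted by Benjamini-Hochberg and a threshold of 0.05. On simulated data with 2 libraries per group and 1 spread set for all genes, edgeR called 89% of 2-fold and 30% of 1.41-fold changes. Genes with few counts were not among those changed, so these shares do not cover them. A gene that did not pass may thus still differ by the smaller amount, and a gene with few counts by more. Itgal and Itgax, with fold sizes of 2.11 and 2.16, did not pass. DESeq2 1.42.0 and limma 3.58.1, on log2(FPKM + 1) or log2(FPKM + 0.1), were alternatives, as were other scalings and filters, the replicate block, the 26 entries named by transcript summed with their genes (none belonged to a member), and leaving out each library. Values per library are given for called members, for members averaging 20 FPKM or more and for Itgb1, Fn1, Tnc, Itga5, Itgav, Itga10, Itga11, Itga6, Lamb1, Lamc1, Lama4, Postn and Sparc. Of the other lists the called genes were named, up to 6 with the smallest p-values. Other genes given with values, such as Nid1, Itga3, Itga7, Itga9, Itgal, Lamb3, Tnxb, Adgre1, Ptprc, Thbs1 and Twist1, were chosen after their values were seen. Promoter windows are from RefSeq (GRCm38.p6), a later build than that of the files, and no coordinate was carried between builds. Reads shared between related chain genes cannot be traced in the deposited counts. The values of 1 member are not reported here and it is left out of the plots, while counts and sums over members include it.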

Additional observations from a re-analysis of the deposited data

How the results depend on the processing

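Itga10, Itga1, Itgam and Itgb2 were lower in knockout in every setting run. They kept their call in 37 of 44 values that used all 4 libraries. With limma on log2(FPKM + 1) without a filter 0 members passed, as did 0 of all genes in each direction (2309 higher and 1798 lower at an unadjusted p under 0.05) and 0 genes of every other list. Itga1 lost its call without a filter on low counts (adjusted p = 0.0783) and with limma on filtered FPKM (0.0599 and 0.0621). DESeq2 called 1 member higher, Nid1, and 1 gene higher each among other basement membrane genes and other matrix receptors. Over all genes 265 rose and 455 fell with no filter on counts, and 568 or 561 rose and 512 or 507 fell with limma on FPKM with a pseudocount of 1 or 0.1. In those settings 1 other basement membrane gene fell, and with limma 1 matrix receptor and 1 adhesive ligand rose. With limma on FPKM the signs of Itgb1 (0.01), Itgb5 (0.01) and Lama4 (0.02) turned; the cause was not tested.

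The replicate numbers pair nothing by the labels, and samples of the same number correlated at 0.107 in their deviations over 2 pairs. With the replicate block 949 genes rose and 1367 fell, and of the members 7 fell (Itga5, Itga3 and Tnc beside the 4) and 1, Nid1, rose. In the adhesion complex 5 rose and 5 fell, 4 basement membrane genes fell, 1 matrix receptor rose and 2 fell, and 9 adhesive ligands fell.

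With each library left out in turn, edgeR called 0 to 450 genes higher and 0 to 825 lower, members 0 to 1 and 0 to 7, the adhesion complex 0 to 3 and 0 to 2, adhesive ligands 0 to 3 and 0 to 8, basement membrane genes 0 to 5 lower, and matrix receptors 0 to 1 and 0 to 3. DESeq2, an alternative added after the data were seen, then called 190, 125, 187 and 222 genes higher and 354, 292, 447 and 561 lower (without wild type replicate 1, wild type replicate 2, knockout replicate 1 and knockout replicate 2), and members lower in 4, 1, 3 and 5 cases. The log2 fold change of these members crossed 0, with ranges of -0.10 to 0.05 for Itgb5, -0.23 to 0.03 for Itga2, -0.29 to 0.28 for Itgb8, -0.44 to 0.82 for Itga7, -0.52 to 0.21 for Itgae, -1.32 to 0.54 for Itgb2l, -0.21 to 0.17 for Lama4, -0.13 to 0.05 for Hspg2, -0.16 to 0.01 for Nid2, -0.16 to 0.49 for Postn, -0.14 to 0.07 for Sparc and -0.95 to 0.12 for Tnxb. With 1 library in a group its spread is assumed to equal that of the other group. 20 of the 47 genes average under 1 FPKM, where 2 libraries per group leave wide intervals.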
